A study of Mus musculus with 12 samples.

Results

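The core circadian loop is described here through 10 genes in mouse kidney cortex: Arntl, Clock, Npas2, Per1, Per2, Per3, Cry1, Cry2, Nr1d1 and Nr1d2. They were chosen by gene symbol, and 10 of 10 were found among the 11614 genes of the deposited tables. RNA was sequenced in 12 libraries, 3 in each of 4 groups of C57BL/6J mice. Control mice received a normal diet and corn oil for 12 or 24 weeks. NASH mice received a Western diet (WD) and CCl4, a liver toxin, for the same times. NASH, non-alcoholic steatohepatitis, is an inflamed fatty liver. Diet, toxin and liver disease therefore differ together between the groups, and a NASH difference below covers all of them. Per the labels, the groups held 6 control and 6 NASH mice at 12 weeks, 8 control mice at 24 weeks and 10 NASH mice at 24 weeks, with equal numbers of each sex. The labels do not say whether a library is 1 animal or a pool, so the p-values measure only the spread between these samples. They also give no hour of dissection, so each level belongs to an unstated hour of the day. A difference between groups therefore cannot be told apart from a difference in that hour.

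The circadian clock is a feedback loop that runs in almost every cell, kidney tubule cells included, with a period of about a day. ARNTL (also called BMAL1) pairs with CLOCK or its relative NPAS2 and switches on the Per, Cry and Nr1d genes through E-box sequences. PER and CRY proteins then block that pair, while the NR1D proteins (REV-ERB alpha and beta) repress Arntl through ROR elements. Activator genes such as Arntl and Npas2 are thus known to peak at an hour of the day when Nr1d1 and the D-box activator gene Dbp are low, and the reverse. In kidney the clock is known to drive daily rhythms of salt and water transport.

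Sequences around the start sites are shown with their matches to the kinds of element through which clock factors are known to act. RefSeq windows on GRCm38.p6, from 250 bases before to 50 after each gene's start, matched 9 of the 10 genes. They were searched on both strands for 5 motifs, with letters chosen while the sequences were in view. The motifs were the E-box CACGTG, its variant CACGTT, the D-box TTATGNAA bound by DBP, TEF, HLF and NFIL3, the ROR element core GTAGGTNA and the cAMP response element TGACGTCA. Of 32851 such windows, 7.15% held the E-box, 4.68% the variant, 3.38% the D-box, 2.14% the ROR element core and 1.79% the cAMP response element. Capitals below mark the matched letters, on either strand, and the listed matches do not overlap each other. All sequences are written 5′ to 3′ on the gene's strand. The Per3 window (chr4:151044666-151044915, minus strand, the 250 bases before the start) holds the D-box at 205 and at 158 bases before the start. The Per1 window (chr11:69098699-69098948, plus strand) holds an E-box 166 bases and a D-box 24 bases before the RefSeq start.
Per3: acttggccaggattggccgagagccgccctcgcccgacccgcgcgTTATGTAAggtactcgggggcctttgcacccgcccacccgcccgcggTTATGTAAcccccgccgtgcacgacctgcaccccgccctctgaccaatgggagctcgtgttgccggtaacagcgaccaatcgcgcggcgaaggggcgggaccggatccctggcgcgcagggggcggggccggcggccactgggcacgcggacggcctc
Per1: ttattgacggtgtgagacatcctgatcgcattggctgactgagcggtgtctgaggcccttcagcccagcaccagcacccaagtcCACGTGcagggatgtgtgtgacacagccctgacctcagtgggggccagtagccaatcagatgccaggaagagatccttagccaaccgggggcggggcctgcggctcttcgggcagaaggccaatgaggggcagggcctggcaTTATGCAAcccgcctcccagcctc
Shorter stretches of 30 bases show the sites of other members. Arntl carries a ROR element core 40 bases after its start (chr7:113207485-113207514, plus strand). Cry1 holds an E-box 60 bases before its start (chr10:85185097-85185126, minus strand). The variant lies 79 bases before the same start, outside the stretch shown. In Cry2 the variant lies 166 bases before the start (chr2:92434218-92434247, minus strand), and in Nr1d1 it lies 28 bases before (chr11:98775388-98775417, minus strand).
Arntl: ggagcggattggtcggaaaGTAGGTTAgtg
Cry1: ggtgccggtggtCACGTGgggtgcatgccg
Cry2: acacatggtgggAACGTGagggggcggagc
Nr1d1: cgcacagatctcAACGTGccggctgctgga
The windows of Clock, Npas2 and Nr1d2 held none of the searched letters. A match is a run of letters and no evidence of binding in these kidneys.

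Values below are the deposited log2 values, and a difference is on that log2 scale. Depth, estimated from the steps between low values, ran from 7170000 reads in NASH replicate 2 at 12 weeks to 14100000 in control replicate 2 at 24 weeks. Replicates 2 and 3 of NASH at 12 weeks (7170000 and 8230000 reads) were shallower than the 3 controls of that time (12700000, 13700000 and 13100000 reads). Proximal tubule markers summed to 302000 to 410000 scaled reads in all 12 libraries, with 8 of 8 measured, as the tissue label calls for. Replicate 1 of every group stood apart from replicates 2 and 3. Its 4 libraries carried Xist at 10.60 to 11.54 and Ddx3y at 2.48 to 4.25, against 2.97 to 4.86 and 8.95 to 9.62 in the other 8. Because libraries with the same number also deviated together, each comparison is given without and with the replicate number as a block. That block also takes up the split in Xist and Ddx3y. A fit of replicates 2 and 3 alone holds only libraries with low Xist and high Ddx3y. A gene was called at a Benjamini-Hochberg adjusted p under 0.05 over all 11614 genes in limma, a linear model with moderated errors.

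At 12 weeks the activator genes were lower and most repressor genes higher in the NASH libraries than in the controls. Npas2, an activator, was 6.1-fold lower in NASH in both fits. Arntl and Clock were lower, and Per2, Per3, Cry2, Nr1d1 and Nr1d2 higher, and over all 12 libraries these 7 passed the test only with the block. Of the 7, 5 (Arntl, Per2, Per3, Nr1d1 and Nr1d2) also passed in replicates 2 and 3 alone, where no block was fitted, and Nr1d2 also without control replicate 1 (adjusted p = 0.0303). In 9 of the 10 genes the 3 NASH and 3 control libraries did not overlap, 5 with NASH higher and 4 with NASH lower, where 22.5% of all genes were so separated, 8.14% higher and 14.4% lower. At 24 weeks none of the 10 was separated, where 7.22% of all genes were.

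Npas2 (gene ID 18143, chr1:39194272-39363240, plus strand), the CLOCK relative that also pairs with ARNTL, showed the widest gap. Its values were 8.14, 8.67 and 9.08 in control replicates 1, 2 and 3 at 12 weeks and 6.29, 5.92 and 5.85 in NASH. All 3 NASH libraries lay far below all 3 controls, and replicate 3 held both the highest control and the lowest NASH value. The estimated reads behind them were 263, 402 and 511 in controls and 70, 31 and 34 in NASH. The difference was -2.61 (SE 0.28, limma adjusted p = 0.00984 without and 0.00209 with the block). Without the block the call was lost when the 12-week groups were fitted alone (adjusted p = 0.0642) and when control replicate 2 or 3 or NASH replicate 2 or 3 was left out (0.0992, 0.0844, 0.0883 and 0.0972).

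Arntl (gene ID 11865, chr7:113207465-113314126, plus strand), the partner that both CLOCK and NPAS2 need, stood at 9.42, 9.12 and 9.30 in the controls and at 7.83, 7.54 and 7.55 in NASH. Both groups were tight, with SDs of 0.15 and 0.16 (n = 3), and they were 1.64 apart. That difference of -1.64 (a 3.12-fold lower level) had an SE of 0.34 without the block (adjusted p = 0.176) and 0.21 with it (adjusted p = 0.00394). Clock (gene ID 12753, chr5:76209868-76304792, minus strand), which encodes a histone acetyltransferase as well as the activator, read 10.72, 9.77 and 9.91 in controls against 9.54, 8.77 and 9.22 in NASH. Replicate 1 was the highest of the 3 in both groups, and the groups did not overlap. Its difference was -0.96 (SE 0.33, adjusted p = 0.281), and with the block the SE was 0.13 (adjusted p = 0.00463). With GC and length trends also removed, the difference was -0.55 (adjusted p = 0.0198).

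Among the repressors, Per3 (gene ID 18628, chr4:151003655-151044665, minus strand) had the largest positive difference. It read 6.27, 6.76 and 6.44 in controls and 7.82, 8.33 and 8.38 in NASH, so the lowest NASH library lay well above the highest control. The difference was 1.69 (3.22-fold, SE 0.27, adjusted p = 0.0948), with an SE of 0.19 and an adjusted p of 0.00276 under the block. Per2 (gene ID 18627, chr1:91415982-91459328, minus strand), a PER protein central to the negative limb, was almost the same in the 3 controls (7.23, 7.14 and 7.24) and higher in NASH (8.11, 8.60 and 8.62). This 1.24 difference (2.36-fold, SE 0.25) had an adjusted p of 0.169, and of 0.00860 with the block.

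Per1 (gene ID 18626, chr11:69098956-69109957, plus strand), a PER gene that glucocorticoids also induce, was the 1 member whose 12-week groups overlapped. Controls read 9.45, 7.53 and 7.64, and NASH libraries 8.35, 8.29 and 8.67. Control replicate 1 was above all NASH libraries and the other 2 controls were below them. The mean difference was 0.23 (SE 0.51, adjusted p = 0.863, and 0.790 with the block), with a 95% interval from -0.90 to 1.36. In replicates 2 and 3 alone it was 0.89 (SE 0.17, adjusted p = 0.0234).

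The cryptochromes, which bind the activators and hold them inactive, showed small differences. Cry2 (gene ID 12953, chr2:92403647-92434069, minus strand) read 7.99, 7.93 and 7.86 in controls and 8.44, 8.57 and 8.40 in NASH. Its groups were separate but close, with a difference of 0.54 (1.45-fold, SE 0.15, adjusted p = 0.260, and 0.0379 with the block). The block call on Cry2 was lost in 7 of 15 block alternatives, each of them leaving out 1 library, with adjusted p up to 0.116. Cry1 (gene ID 12952, chr10:85131700-85185054, minus strand) read 7.02, 7.16 and 7.48 in controls and 6.86, 6.99 and 7.01 in NASH. These groups nearly touched, and the difference of -0.27 (95% interval -0.97 to 0.44) passed in neither fit (adjusted p = 0.727 and 0.576).

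Nr1d1 and Nr1d2, the nuclear receptors that repress Arntl, were both higher. Nr1d2 (gene ID 353187, chr14:18204056-18239106, minus strand) read 9.75, 9.01 and 8.91 in controls and 10.65, 10.35 and 10.66 in NASH. Its difference was 1.33 (2.51-fold, SE 0.22, adjusted p = 0.107, and 0.00834 with the block). For Nr1d1 (gene ID 217166, chr11:98767932-98775377, minus strand) the values were 9.70, 8.80 and 8.79 in controls and 11.04, 10.02 and 9.80 in NASH. Replicate 1 was again the highest in both groups, and the lowest NASH library lay only just above the highest control. The difference of 1.19 (2.29-fold, SE 0.33) had an adjusted p of 0.260, and of 0.0285 with the block. That block call was lost in 5 of 15 block alternatives, among them the removal of GC and length trends (a difference of 1.16, adjusted p = 0.0776) and leaving out control replicate 2 or 3 or NASH replicate 1 or 2 (adjusted p = 0.1, 0.102, 0.111 and 0.0523).

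**Figure D1:**
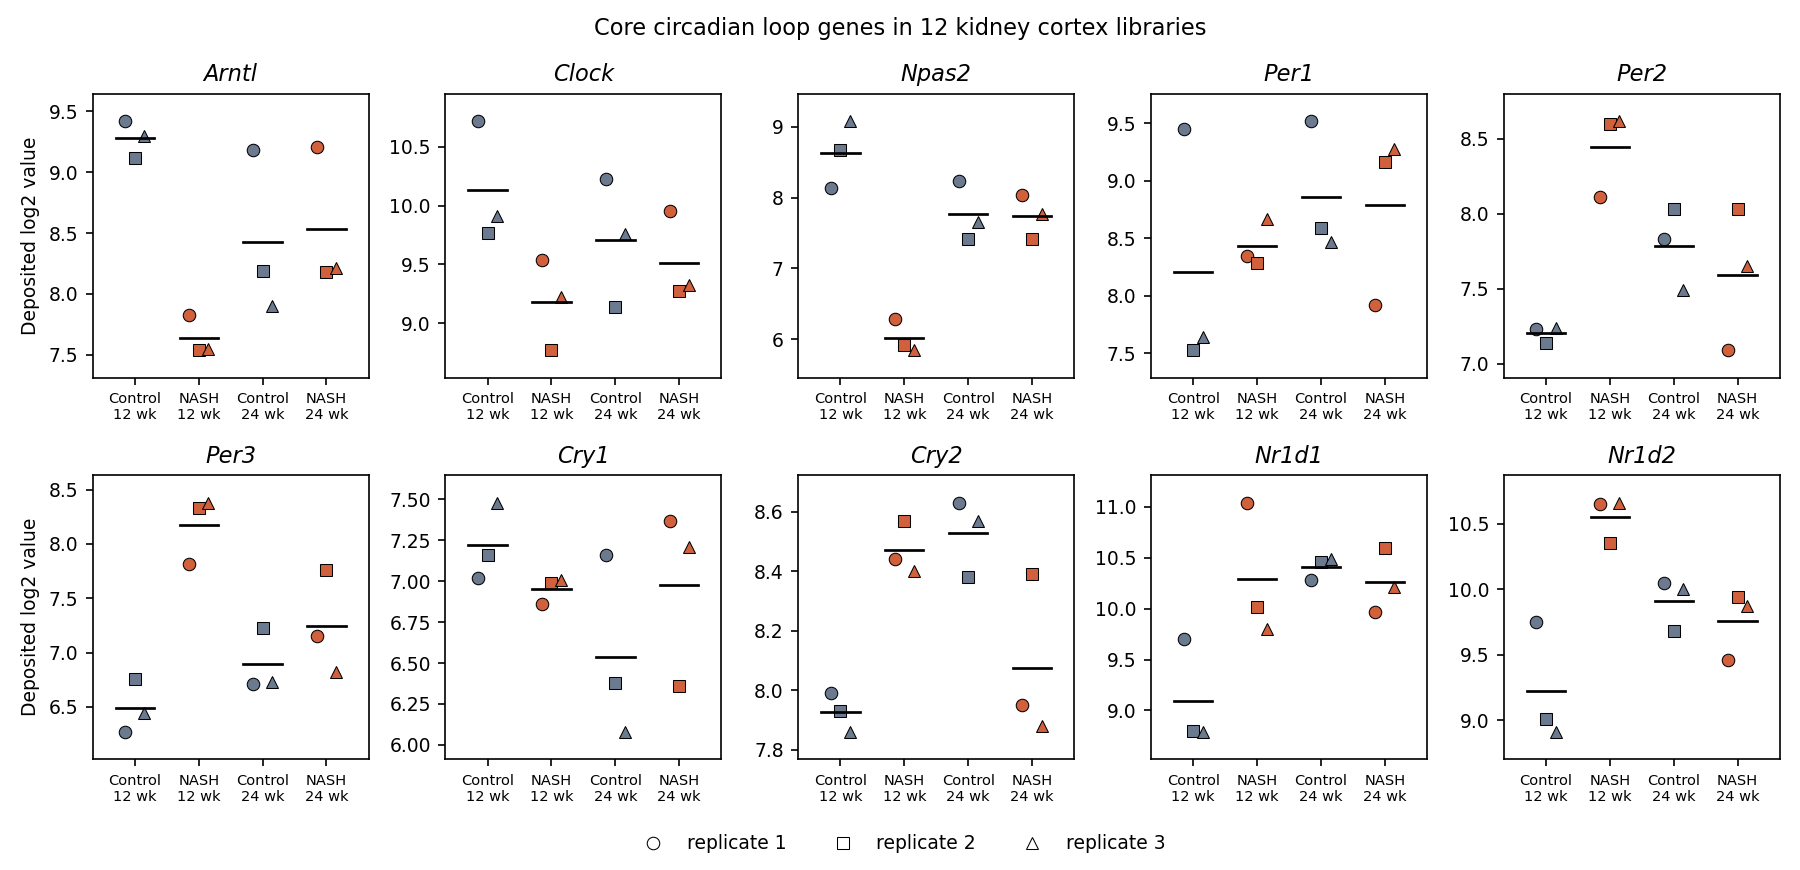
Deposited log2 values (vertical axes, a separate scale for each gene) of the 10 core loop genes in the 4 groups (horizontal axes); circles, squares and triangles are replicates 1, 2 and 3 and bars are group means. At 12 weeks all 3 NASH libraries lie below the 3 controls for Arntl, Clock, Npas2 and Cry1 and above them for Per2, Per3, Cry2, Nr1d1 and Nr1d2, and at 24 weeks the groups overlap in all 10 genes.

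Counted over the 10 genes, 1 was called at 12 weeks without the block, where 0.0517% of all genes were (6 of 11614). With the block 8 were called, 5 higher and 3 lower, where 12.9% of all genes were, 3.01% higher and 9.85% lower. The block with quantile normalization or with median-of-ratios scaling also called 5 higher and 3 lower. Those scalings moved the background to 4.58% higher and 6.01% lower and to 5.91% higher and 5.97% lower. With GC and length trends removed 7 were called, where 2.84% of genes were, and replicates 2 and 3 alone gave 7, where 3.31% were. The latter 7 include Per1 and leave out Clock and Cry2. The median difference was 0.38 over the 10 genes and -0.08 over all genes, and the former spans genes of both directions. Arntl, Clock, Npas2, Per2, Per3 and Nr1d2 were called in 15 of 15 block alternatives.

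Between libraries of the same number at 12 weeks, the size of the difference varied by gene, while its sign follows in 9 genes from groups that do not overlap. Npas2 differed by -1.86, -2.75 and -3.22 in replicates 1, 2 and 3, and Arntl by -1.59, -1.58 and -1.74. For Per3 the pairs gave 1.55, 1.57 and 1.94, and for Nr1d2 0.90, 1.34 and 1.75. Per1 was the exception, at -1.10, 0.76 and 1.03.

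**Figure D2:**
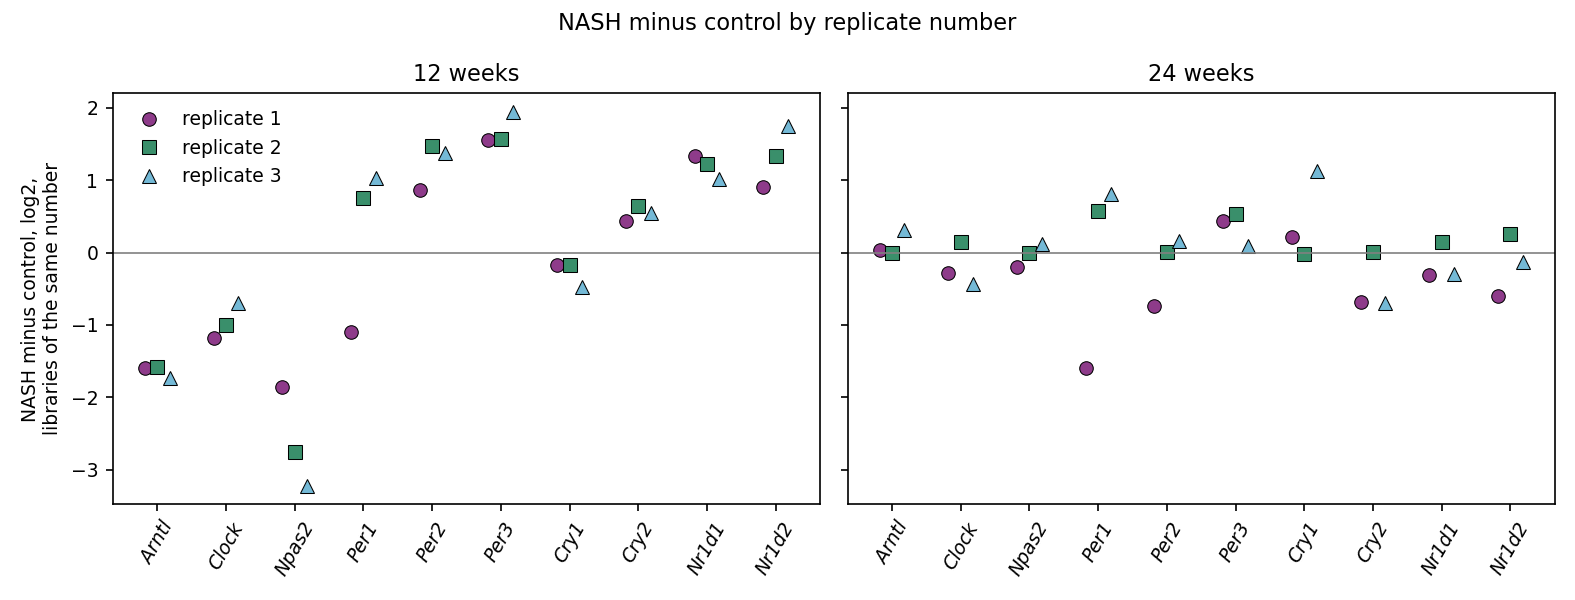
NASH minus control log2 difference (vertical axis) for each core loop gene (horizontal axis) between libraries with the same replicate number, at 12 weeks (left) and 24 weeks (right). At 12 weeks the pairs run from -3.22 (Npas2, replicate 3) to 1.94 (Per3, replicate 3), and at 24 weeks from -1.60 (Per1, replicate 1) to 1.13 (Cry1, replicate 3).

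At 24 weeks no member separated NASH from control, and the arms of the loop did not stand apart. In the controls Arntl read 9.18, 8.19 and 7.90, and in NASH 9.21, 8.18 and 8.21. Replicate 1 was the highest library in both groups, and the group difference was 0.11 (SE 0.34, 95% interval -0.63 to 0.85). Npas2 read 8.23, 7.42 and 7.65 in controls and 8.03, 7.42 and 7.77 in NASH, a difference of -0.03 (interval -0.65 to 0.60). For Npas2 and Arntl the interval excludes the 12-week estimate of the same gene, but that estimate has an error of its own. The direct test of a change between the times, given below, passed for neither gene without or with the block. Clock read 10.23, 9.14 and 9.76 in controls and 9.95, 9.27 and 9.32 in NASH, again overlapping, with a difference of -0.19 (interval -0.93 to 0.54).

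The repressors of the 24-week groups overlapped as well. Per2 stood at 7.83, 8.03 and 7.49 in controls and at 7.09, 8.03 and 7.65 in NASH, a difference of -0.19 (interval -0.73 to 0.35). Per3 read 6.71, 7.23 and 6.73 against 7.15, 7.76 and 6.82, with NASH higher in 3 of 3 same-numbered pairs and a difference of 0.35 (interval -0.25 to 0.96). Per1 again split by number, with controls at 9.52, 8.59 and 8.47 and NASH at 7.92, 9.16 and 9.28. NASH replicate 1 was the lowest of the 6 and control replicate 1 the highest, and the mean difference was -0.07 (interval -1.20 to 1.06). Cry1 read 7.16, 6.38 and 6.08 against 7.37, 6.36 and 7.21, a difference of 0.44 (interval -0.27 to 1.15).

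Cry2 had the smallest p of the 10 at this time. Its libraries read 8.63, 8.38 and 8.57 in controls and 7.95, 8.39 and 7.88 in NASH, where replicate 2 alone reached the control level. The difference was -0.45 (interval -0.79 to -0.11, limma adjusted p = 0.999, and 0.434 with the block). The receptor Nr1d1 read 10.28, 10.46 and 10.49 against 9.97, 10.60 and 10.21, and Nr1d2 read 10.05, 9.68 and 10.00 against 9.46, 9.94 and 9.87. Both differed by -0.15, with intervals from -0.87 to 0.57 and from -0.64 to 0.34, and both pairs of groups overlapped. None of the 10 was called, and limma called 0 of all genes (0%) without the block, with 347 at an unadjusted p under 0.05 and 1 of the 10 members among them. The block called 1 of 11614 genes (0.00861%), none a member.

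**Figure D3:**
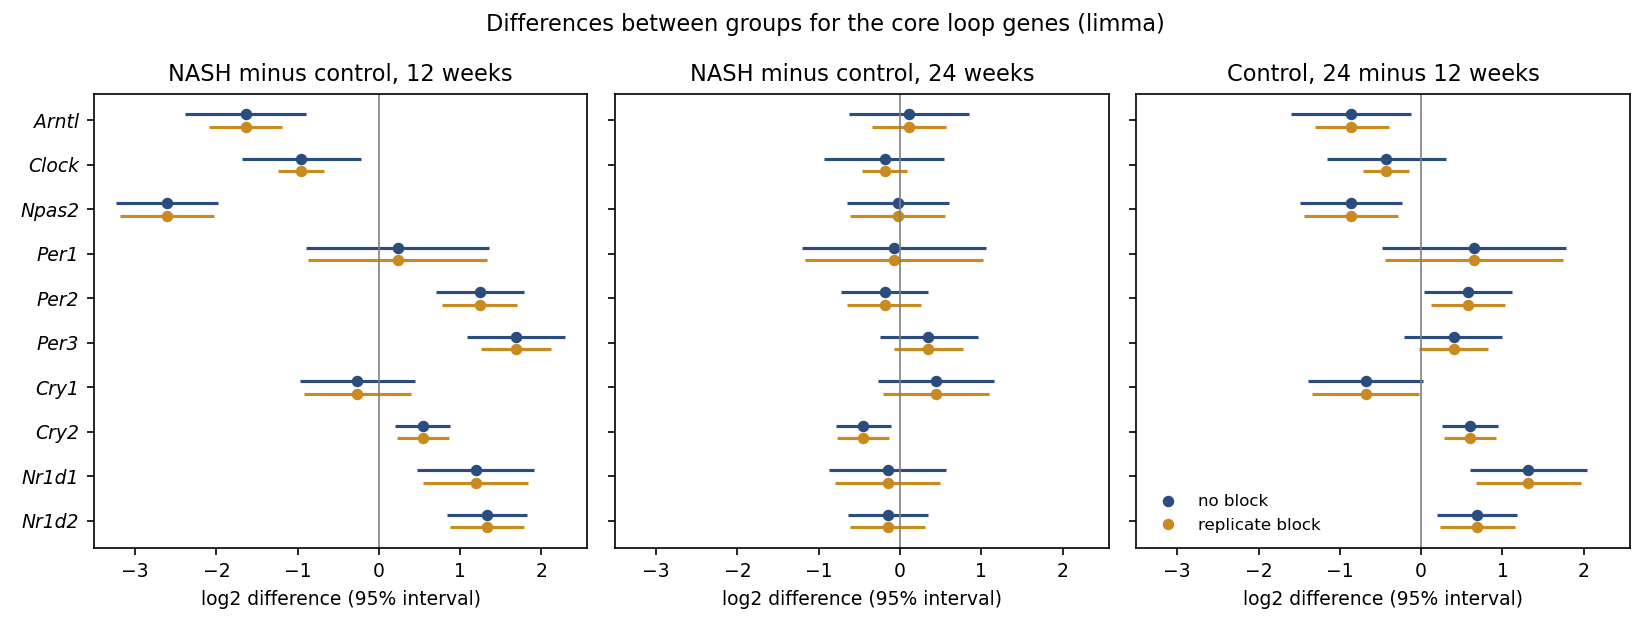
Log2 differences (points) with 95% intervals (bars) for the 10 core loop genes: NASH minus control at 12 weeks, at 24 weeks, and control at 24 minus 12 weeks, without (blue) and with (ochre) the replicate block. The 12-week panel runs from -2.61 for Npas2 to 1.69 for Per3, and the 24-week panel from -0.45 for Cry2 to 0.44 for Cry1.

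Whether the NASH difference itself changed between the times was tested as the 24-week minus the 12-week difference. Npas2 gave 2.58 (SE 0.40, adjusted p = 0.565, and 0.0739 with the block) and Arntl 1.75 (SE 0.47, adjusted p = 1.0, and 0.0845 with the block). Per2, Per3, Cry2, Nr1d1 and Nr1d2 gave -1.43, -1.34, -0.99, -1.35 and -1.48, with adjusted p from 0.732 to 1.0, and from 0.134 to 0.258 with the block. None of the 10 passed in either fit, where 0% and 0.00861% of all genes did. Unadjusted, 7 of the 10 had a p under 0.05 without the block, as did 425 of 11614 genes, and 8 did with it, as did 1489 of all genes. Replicates 2 and 3 alone called 4 members (Arntl, Npas2, Nr1d1 and Nr1d2), where 0.629% of genes were called. The block with quantile normalization called Npas2 (adjusted p = 0.049), where 0.0344% of genes were called.

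The controls of 24 weeks were also set against those of 12 weeks, a comparison that shares its 12-week controls with the 12-week NASH difference. The control means differed by -0.86 for Arntl, -0.86 for Npas2 and -0.43 for Clock, beside NASH differences of -1.64, -2.61 and -0.96 at 12 weeks. Nr1d1 differed by 1.32 (SE 0.33), Nr1d2 by 0.69, Cry2 by 0.60 and Per2 by 0.58, beside 1.19, 1.33, 0.54 and 1.24. The Nr1d1 controls at 24 weeks, at 10.28 or more, were higher than the 12-week controls at 9.70 or less. Control libraries of the 2 times did not overlap in 3 members (Per2, Cry2 and Nr1d1, all higher at 24 weeks), where 12.1% of all genes were so separated and 4.72% higher. No member was called in either fit (background 0% and 0.172%), the smallest adjusted p being 0.454 without the block and 0.0811 with it. Of the 10, 6 had an unadjusted p under 0.05 without the block, as did 910 of 11614 genes, and 8 with it, as did 2267 of all genes. Replicates 2 and 3 alone called 5 (Arntl, Npas2, Per1, Nr1d1 and Nr1d2), where 6.5% of genes were called.

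Between the NASH groups, 6 members did not overlap, where 8.44% of all genes were separated, 4.06% higher and 4.37% lower. Arntl and Npas2 were higher at 24 than at 12 weeks, by 0.89 (SE 0.34) and 1.72 (SE 0.28). Per2, Per3, Cry2 and Nr1d2 were lower, by -0.85, -0.94, -0.39 and -0.80. Nr1d1 differed by only -0.03 (interval -0.75 to 0.69). None was called in either fit (background 0% and 0.0258%), with the smallest adjusted p, for Npas2, at 0.241 and 0.0761. Replicates 2 and 3 alone called Npas2 and Per1, where 4.66% of genes were called.

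Ranked by group mean, NASH at 12 weeks was lowest of the 4 groups for Arntl, Clock and Npas2 and highest for Per2, Per3 and Nr1d2. Control at 12 weeks was highest for all 3 activators and for Cry1, and lowest for Per1, Per2, Per3, Cry2, Nr1d1 and Nr1d2. The 24-week groups lay between these ends for Arntl, Clock, Npas2, Per2, Per3 and Nr1d2. For Arntl and Npas2 the NASH group at 12 weeks was apart from its neighbour in this order, and the other 3 groups overlapped one another in sequence. For Per2, Per3 and Nr1d2 it was likewise apart at the top. For Nr1d1 the 12-week controls were apart at the bottom and the other 3 groups overlapped. For Cry2, NASH at 24 weeks (up to 8.39) and NASH at 12 weeks (8.40 or more) were barely apart, and control at 24 weeks overlapped both. Clock, Per1 and Cry1 showed overlap at every step of their order.

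Averaged over both times, the NASH difference passed for no member without the block (background 0%) and for 6 with it, where 10.4% of all genes were called. Those were Npas2 (-1.32), Arntl (-0.76) and Clock (-0.58) on the lower side and Per3 (1.02), Nr1d2 (0.59) and Per2 (0.52) on the higher side. Replicates 2 and 3 alone called 5 (Arntl, Npas2, Per1, Nr1d1 and Nr1d2), where 1.06% of genes were. Clock, Per2 and Per3 did not pass there (limma adjusted p = 0.126, 0.0502 and 0.0541). The average weighs both times equally, and at 24 weeks the differences of the 6 genes called with the block ran from -0.19 to 0.35. The block call was lost in 13 of 15 block alternatives for Per2, in 10 for Nr1d2 and in 1 for Arntl. Leaving out 1 library left 3 to 6 called with the block, the fewest without control replicate 3 of 12 weeks.

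Scaled reads per kb of transcript, the deposited value taken off the log scale and divided by the deposited gene length, allow levels to be compared between genes. At 12 weeks Arntl stood at 214 ± 22.2 scaled reads per kb in controls and 68.9 ± 7.93 in NASH (SD, n = 3), and Nr1d1 at 207 ± 81.0 and 486 ± 240. The ratio of Nr1d1 to Arntl within a library, an index of the repressor against its target, was 1.28, 0.841 and 0.737 in controls and 9.77, 5.86 and 5.00 in NASH. In the 24-week controls the ratio read 2.25, 5.09 and 6.37, and in the NASH libraries of that time 1.77, 5.65 and 4.2. It was lowest in the 12-week controls, below every library of the other groups, and the 24-week groups overlapped. Replicate 1 had the highest ratio of its group at 12 weeks and the lowest at 24 weeks.

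The ratio of Per3 to Npas2 was 0.191, 0.186 and 0.112 in 12-week controls and 2.02, 3.71 and 4.02 in 12-week NASH. It was 0.243, 0.612 and 0.368 in 24-week controls and 0.379, 0.879 and 0.362 in 24-week NASH. Per length, Npas2 was the less abundant of both in the 12-week NASH libraries alone. Relative to its paralog Clock, Npas2 stood at 0.391, 1.09 and 1.31 in 12-week controls and at 0.244, 0.324 and 0.226 in 12-week NASH. The 24-week ratios were 0.583, 0.708 and 0.539 in controls and 0.613, 0.646 and 0.793 in NASH. Every 12-week NASH library thus had a lower ratio than every library of the other groups, though control replicate 1 came close.

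**Figure D4:**
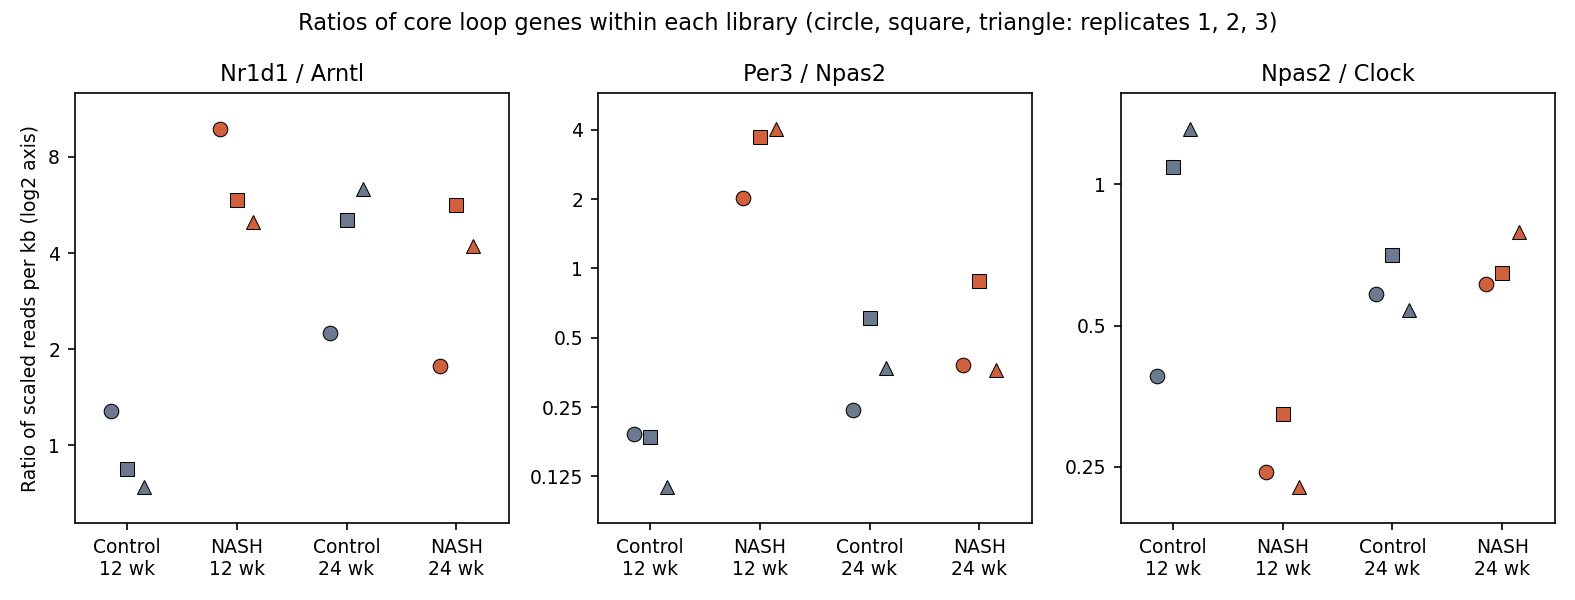
Ratios of scaled reads per kb between core loop genes within each library (vertical axes, log2 scale) in the 4 groups (horizontal axes); circles, squares and triangles are replicates 1, 2 and 3. The Nr1d1 to Arntl ratio is 0.737 to 1.28 in 12-week controls and 5.00 to 9.77 in 12-week NASH, and the Per3 to Npas2 ratio 0.112 to 0.191 and 2.02 to 4.02.

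The genes whose deposited log2 values ran most like those of Arntl over the 12 libraries were Cldn1 (Pearson r = 0.94), Arid4a, Pip4k2b, Clcn6 and Plekhm1 (0.92 or above). Most opposite were Dbp (-0.94) and Tef (-0.93), both D-box activators, and then Etv6, Mrps5 and Tspan4. With Arntl, the other members gave 0.88 for Npas2, 0.82 for Clock and 0.53 for Cry1, and -0.83 for Per2, -0.80 for Per3, -0.76 for Nr1d2, -0.61 for Cry2 and -0.56 for Nr1d1. Per1 stood near 0, at -0.08. Among all genes compared, Npas2 ranked 52, Clock 235 and Cry1 3588 in likeness to Arntl, so many genes outside the loop ran closer to it. For Per3 the most similar were Acot13 (0.95), Banf1, Arpc5, Hagh and Coq10b and the most opposite Arhgef5 (-0.96), Cluh, L3mbtl3, Dtx4 and Dsc1. Nr1d1 ran most like Ppp1r15a (0.94), Fchsd1, Igfbp1, Phf24 and Tns2, and most opposite to Asb13 (-0.91), B3galnt2, Stxbp5l, Ssx2ip and Ostm1. These values describe 12 libraries that share groups, replicate numbers and depths.

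The factors that bind D-boxes were measured with 4 of 4 genes. Dbp, a D-box activator under E-box control, read 5.01, 5.19 and 3.54 in 12-week controls and 9.87, 10.25 and 10.07 in NASH. The groups were far apart, and Dbp was higher in NASH by 5.48 (44.7-fold, SE 0.78, adjusted p = 0.0468, and 0.00218 with the block). That fold rests on low control levels of 32.2, 36.5 and 11.6 scaled reads. Unblocked, limma found no gene higher in NASH at 12 weeks after median-of-ratios or quantile scaling, or with no mean-variance trend. Dbp therefore failed in each of these. It also failed without control replicate 1 of 12 weeks, where Nr1d2 was the only gene called higher. With the block and GC and length trends removed, Dbp passed (5.28, adjusted p = 0.00434). Tef and Hlf, its relatives, differed by 1.17 and 0.49 (adjusted p = 0.260 and 0.305, and 0.00463 and 0.0454 with the block). Nfil3, the repressor at the same sites, read 8.48, 7.93 and 8.20 in controls and 6.39, 4.29 and 5.35 in NASH. It differed by -2.86 (SE 0.52, adjusted p = 0.142, and 0.00131 with the block). At 24 weeks Dbp was scattered, at 5.73, 7.86 and 8.01 in controls and 5.63, 8.65 and 6.73 in NASH, and the 4 differences ran from -0.22 to 0.38 with none called. The median over the 4 was 0.83 at 12 weeks and -0.17 at 24 weeks, where it was -0.08 and 0.01 over all genes.

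Of 16 listed regulators of the loop (kinases, ubiquitin ligase parts, ROR and DEC factors) 11 were measured. None was called at 12 weeks without the block, and 2 were lower with it, where 12.9% of all genes were called and 9.85% were lower. Gsk3b, a kinase that acts on several clock proteins, differed by -1.56 (adjusted p = 0.270, and 0.0149 with the block), and Fbxw11, a ligase subunit that targets PER, by -0.39 (0.272 and 0.0217). Both lost the block call when GC and length trends were removed (adjusted p = 0.0783 and 0.309). Bhlhe40 (0.67) and Csnk1d (-0.32) passed in neither fit, and no regulator was called at 24 weeks. The median over the 11 was -0.24 at 12 weeks.

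Of 14 listed clock-linked genes of kidney function 12 were measured, and 3 were called at 12 weeks with the block, where 12.9% of all genes were, and none without. Slc9a3, the apical sodium-proton exchanger of the proximal tubule, differed by -0.93 (adjusted p = 0.277, and 0.0115 with the block). Aqp2, the vasopressin-regulated water channel, differed by 1.46 (0.260 and 0.0270), and Por, which feeds electrons to cytochrome P450 enzymes, by 0.73 (0.287 and 0.0152). With GC and length trends removed Aqp2 lost its call (adjusted p = 0.109). Slc5a1 (0.76) and Noct (1.14) passed in neither fit. The median of the 12 was 0.37 at 12 weeks and -0.02 at 24 weeks, and none was called at 24 weeks.

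Glucocorticoids and acute stimuli also reach Per1 and other clock genes, and 2 lists were read for this. Of 12 glucocorticoid-responsive genes, all measured, Pck1 alone was called at 12 weeks, and only with the block (1.88, adjusted p = 0.260, and 0.0316 with the block), beside 12.9% of all genes. The median of the 12 was -0.22. Of 12 immediate early genes 9 were measured, and Junb (1.22) and Ier2 (1.36) were called only with the block (adjusted p = 0.0378 and 0.0397), again beside 12.9% of all genes, with a list median of 0.29. Pck1, Junb and Ier2 each lost that call with GC and length trends removed (0.0784, 0.0912 and 0.0885). At 24 weeks none of either list was called. The part of these signals in the clock gene differences was not tested.

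Cortex tissue can carry other cells, and in bulk RNA fewer cells of a type and less RNA per cell cannot be told apart. Adipocyte markers (9 of 9 measured) summed to 430 to 1430 scaled reads in 12-week controls and 974 to 2720 in 12-week NASH, and to 1950 to 22800 and 618 to 1800 at 24 weeks. Erythroid markers (7 of 7, of which Hbb-bt and Hbb-b2 hold the same value in every library and were summed once) came to 1190 to 1630 and 1590 to 6620 at 12 weeks, and hepatocyte markers (7 of 7) to 4440 to 8210 and 6770 to 9070. Macrophage markers (8 of 8) summed to 1530 to 2180 and 1460 to 3170 at 12 weeks. The NASH and control sums overlapped in each of these lists at 12 weeks, and adipocyte sums did not overlap at 24 weeks. Single markers reached the floor of the values. The lowest were Lep and Retn at 1.18 scaled reads in NASH replicate 1 at 24 weeks, where 1 read stood for 1.124. T cell and adrenal cortex markers had 0 of 5 genes each in the tables. With the block, Ttr (2.77), Apoa2 (1.12) and Apob (-0.67) of the 7 hepatocyte markers were called at 12 weeks, where 12.9% of all genes were. Of 5 loop and distal tubule markers, Calb1 (-1.15) and Slc12a3 (-0.66) were also called with the block. The other 3, Umod (0.68), Slc12a1 (0.43) and Pvalb (0.34), went the other way without a call, and the list median was 0.345. The part of these cell types in the loop gene differences was not tested.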

How the data were processed

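Kidney cortex RNA was sequenced in 12 libraries, 3 per group; per the labels' protocols only RNA with an integrity above 7.5 was used. BWA, limma and mouse build mm10 stand in the submitters' processing notes, with versions and roles not given in the sources used here. The authors deposited normalized log2 values for 11614 genes per library, per the file headers. On the linear scale 85.4% to 91.5% of values below 60 steps were whole multiples of 1 step per library, within 0.01 steps. The source of the remaining values was not tested, and all values were treated as reads times 1 factor. That factor, 1.00 to 1.96 scaled reads per read, gave the estimated depth and the estimated reads behind a value. How the authors set it and which filter they applied to genes are not given in the sources used here. Totals of scaled reads were 13600000 to 14100000.

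The deposited log2 values were fitted as 4 group means over all 12 libraries with limma 3.58.1 in R 4.3.3 (moderated two-sided test, mean-variance trend, Benjamini-Hochberg over all genes) and tested on simulated data. Summaries were made in Python 3.11.15 with pandas 2.3.3 and numpy 2.4.6, and figures with matplotlib 3.10.9. In all, 6 comparisons were made. Replicate numbers occur in every group, and deviations from group means correlated above 0.1 in 18 of 18 same-numbered pairs (0.187 to 0.742), so the number was also fitted as a block. Numbers 2 and 3 also correlated with each other (0.187 to 0.637), which shows replicate 1 apart more than it shows pairs. With 3 libraries against 3, an exact permutation test cannot go below p = 0.1, so none was run. Alternatives were other scalings, no trend, a minimum mean log2 of 5, a pseudocount of 10 scaled reads, the compared groups alone, replicates 2 and 3 alone, GC and length correction (values for 98.2% of genes) and each library left out.

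The members and lists were chosen with earlier results of these data known. All 10 members are named, with up to 4 genes per list by smallest p at 12 weeks and any called, and the 5 most and least similar genes to Arntl, Per3 and Nr1d1, leaving out predicted loci. Positions (counted from 1) and lengths are those of the deposited tables.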

Additional observations from a re-analysis of the deposited data

Results flagged for a closer look

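Per1 moved one way in replicate 1 and the other way in replicates 2 and 3, at both times. Between same-numbered libraries, NASH minus control was -1.10 in replicate 1, 0.76 in replicate 2 and 1.03 in replicate 3 at 12 weeks, and -1.60, 0.57 and 0.81 at 24 weeks, on the log2 scale. A limma term for NASH in replicate 1, added after the data were seen and fitted over all 12 libraries, gave -2.14 for Per1 (SE 0.36, limma adjusted p = 0.157). It did not pass over all genes, of which limma called 0 (856 at an unadjusted p under 0.05). Replicate 1 libraries carry high Xist and low Ddx3y. The term splits the libraries in the same way, so in the Per1 pattern this cannot be told apart from the replicate number. For Per2 and Nr1d2 the same term was -0.69 and -0.66 (adjusted p = 0.604 and 0.618), and for Arntl and Nr1d1 it was -0.02 and 0.00.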

How the results depend on the processing

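Counts of members called changed with the replicate block and with the libraries used. At 12 weeks 1 was called without a block, 0 with the compared groups alone, 7 in replicates 2 and 3 alone, 8 with the replicate block (8 also with quantile normalization and with median-of-ratios scaling) and 7 with the block and GC and length trends removed. Leaving out 1 library gave 0 to 2 without the block (0 without control or NASH replicate 2 or 3 of 12 weeks, 2 without control replicate 1) and 6 to 8 with it. For the averaged effect 0 were called without a block, 1 with quantile normalization, 5 in replicates 2 and 3 alone, 6 with the replicate block (6 with median-of-ratios scaling, 5 with quantile normalization, 5 with GC and length trends removed) and 3 to 6 with the block and 1 library left out. The difference between the times gave 4 in replicates 2 and 3 alone and 1 with the replicate block and quantile normalization, against 0. Replicates 2 and 3 alone gave 5 for controls at 24 against 12 weeks and 2 for NASH, against 0. With the deposited scaling and all 12 libraries, the block changed no call on members at 24 weeks, in the difference between the times, or between 24 and 12 weeks within a treatment. With the block and 1 library left out, the difference between the times gave 0 to 3 (Arntl, Npas2 and Nr1d2 without control replicate 1 of 12 weeks, and Arntl and Npas2 without control replicate 1 of 24 weeks). Likewise, controls at 24 against 12 weeks gave 0 to 2 (Npas2 without control replicate 1 of 12 weeks, Arntl and Nr1d1 without control replicate 1 of 24 weeks, and Nr1d1 without NASH replicate 1 of 12 weeks). NASH at 24 against 12 weeks gave 0 to 1 (Npas2 without replicate 1 of either NASH group or of the 12-week controls), and NASH against control at 24 weeks 0 throughout.

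Single values reversed where they lay near 0. In replicates 2 and 3 alone, the 24-week differences were 0.06 for Npas2, 0.69 for Per1, 0.08 for Per2 and 0.07 for Nr1d2, and NASH at 24 against 12 weeks gave -0.22 for Cry1 and 0.49 for Nr1d1. Quantile normalization turned Cry1 in NASH at 24 against 12 weeks to -0.0047, with or without the replicate block. Leaving out 1 library moved Per1 at 12 weeks between -0.11 and 0.85. At 24 weeks it moved Arntl between -0.23 and 0.49, Clock between -0.48 and 0.07, Npas2 between -0.20 and 0.20, Per1 between -0.32 and 0.36 and Per2 between -0.41 and 0.06. It moved the difference between times for Per1 between -0.92 and 0.13, and NASH at 24 against 12 weeks between -0.17 and 0.34 for Cry1 and -0.27 and 0.35 for Nr1d1. For the averaged effect it gave -0.09 to 0.39 for Per1, -0.03 to 0.24 for Cry1 and -0.04 to 0.09 for Cry2. With the replicate block as well, the range was -0.11 to 0.90 for Per1 at 12 weeks. At 24 weeks it was -0.09 to 0.32 for Arntl, -0.14 to 0.19 for Npas2, -0.44 to 0.66 for Per1, -0.38 to 0.02 for Per2, -0.41 to 0.20 for Nr1d1 and -0.35 to 0.12 for Nr1d2. The difference between times for Per1 ran from -0.97 to 0.44, and NASH at 24 against 12 weeks from -0.02 to 1.09 for Per1, -0.16 to 0.31 for Cry1 and -0.29 to 0.32 for Nr1d1. The averaged effect with the block ran from -0.11 to 0.45 for Per1, -0.07 to 0.23 for Cry1 and -0.04 to 0.09 for Cry2. The cause of these changes was not tested. Depth limits Npas2 most, with 31 estimated reads in NASH replicate 2 at 12 weeks.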
